A study of Mus musculus with 12 samples.

Results

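Myoglobin, the muscle creatine kinases, the muscle forms of cytochrome oxidase subunits and a few fuel genes were followed in C2i-Myog, a stably modified derivative of C2C12 mouse myoblasts. The 10 genes were Mb, Ckm, Ckmt2, Cox6a2, Cox7a1, Cox8b, Ampd1, Ppargc1a, Lpl and Fabp3, out of 19938 genes that the array table named singly. They were chosen by symbol, and where a gene had several transcript clusters (probe groups summarised as 1 value) the cluster with the highest mean over the 12 arrays was used. Every one of the 10 had a value on each array. No filter on low signal was applied.

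The cells carry a cDNA for Flag-tagged mouse myogenin (Myog) that doxycycline switches on. Near confluence they were moved to medium with 1% horse serum, insulin and transferrin for 48 h, which makes myoblasts differentiate. There were 4 groups of 3 arrays. SB+Dox cells received SB203580 at 10 µM, which inhibits p38α and p38β MAP kinases, together with doxycycline at 0.2 µg/mL. SB cells received the inhibitor alone, Dox cells received doxycycline alone, and control cells received neither. The transgene was present in all 4 groups, and no group received doxycycline without it, so effects of the drug and of exogenous Myog cannot be told apart. The arrays measured 1 engineered line, and nothing in the labels tells whether the replicates came from separate cultures. The p-values therefore rest on differences between these samples alone, a spread that may be technical.

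Skeletal muscle stores oxygen on myoglobin and buffers ATP through creatine kinase, with a cytosolic muscle form and a mitochondrial form. Its mitochondria carry tissue-specific versions of several cytochrome oxidase subunits in place of the versions found in most tissues. PGC-1α, the product of Ppargc1a, is a coactivator that raises mitochondrial and oxidative genes, while lipoprotein lipase and the heart-type fatty acid-binding protein serve the supply of fatty acids. Many of these genes are activated as myoblasts differentiate, and E-box sequences bound by myogenic factors are known in the control regions of muscle genes such as Ckm.

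Values are log2 RMA signals, given as mean ± SD (n = 3 arrays per group), and changes are log2 differences with their standard error (SE) from a limma fit over all 12 arrays. A cluster was called at a Benjamini-Hochberg adjusted p under 0.05, over 21789 clusters. The array medians lay between 4.86 and 5.06. No background level was measured, so a printed fold can understate the change of a gene whose lower group is close to or under these medians. Because groups are shared, comparisons with a common group are not independent of each other. In bulk RNA, fewer cells of a kind and less RNA per cell cannot be told apart.

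The 12 markers of the muscle lineage were all measured. Their mean log2 level was 9.69 to 9.87 on the SB+Dox arrays, 8.87 to 9.36 on the SB arrays, 9.90 to 10.05 on the Dox arrays and 9.63 to 9.94 on the control arrays. Of the 12, 1 rose and 7 fell in SB against control, where 6.38% of all clusters were called, and 6 rose and 0 fell in SB+Dox against SB (7.11% of clusters called). In Dox against control 1 rose and 1 fell (5.31%), in SB+Dox against Dox 1 rose and 4 fell (10.4%), and in SB+Dox against control 2 rose and 3 fell (5.26%). Their part in the results of the 10 genes was not tested. The mean level of 9 adipocyte, 5 brown adipocyte, 7 macrophage and 7 endothelial markers was between 3.94 and 4.57 on every array, below the array medians. Single markers lay above these medians, among them Pparg, Cebpa and Gpihbp1, with group means of 6.06 to 6.35, 5.36 to 5.61 and 5.28 to 5.62. Plin1 lay close to or above them (5.06 to 5.23), and Cd68 reached 5.13 in Dox. The limma fit called 0 of these markers in the 6 comparisons, while in SB against control 1, 2, 0 and 1 of them had an unadjusted p under 0.05. Myod1, of the 12 muscle markers, measured 9.25 ± 0.14 in SB+Dox, 9.73 ± 0.25 in SB, 10.39 ± 0.17 in Dox and 10.29 ± 0.26 in control. Myog measured 8.33 ± 0.30 in SB+Dox, 7.70 ± 0.68 in SB, 10.37 ± 0.05 in Dox and 9.91 ± 0.26 in control. Its change with doxycycline did not pass the test with the inhibitor (log2 difference 0.64 with SE 0.25, adjusted p = 0.158) or without it (log2 difference 0.46 with SE 0.25, adjusted p = 0.467), although the labels state that doxycycline raises it. The probes' position relative to the transgene was not examined. On the second principal component, SB replicate 3 lay far from the other SB arrays (-8.47 against 20.26 and 11.74), and results of the 10 genes that change without it are named beside them.

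Among the 10 genes, 6 were called in at least 1 comparison and 4 in none. With the inhibitor alone, 3 of the 10 fell (Mb, Ckm and Cox6a2) and 2 rose (Ppargc1a and Lpl) relative to control, where 6.38% of all clusters were called, 2.51% higher and 3.87% lower. With doxycycline added to the inhibitor, 3 rose (Ckm, Cox6a2 and Cox8b) and 0 fell relative to SB, where 7.11% of clusters were called, 4.4% higher and 2.71% lower. Doxycycline alone raised 3 (Mb, Cox6a2 and Cox8b) and lowered 0 relative to control, against 5.31% of clusters called, 1.43% higher and 3.88% lower. In SB+Dox against Dox, 2 rose (Ppargc1a and Lpl) and 1 fell (Mb), against 10.4% of clusters called, 6.97% higher and 3.43% lower. Relative to control, SB+Dox raised 3 (Cox6a2, Ppargc1a and Lpl) and lowered 1 (Mb), against 5.26% of clusters called, 2.84% higher and 2.42% lower. Their directions were mixed, and the median change of the 10 genes was -0.04, 0.07, 0.08, -0.00 and 0.10 in these 5 comparisons, beside 0.03, -0.04, 0.01, -0.03 and -0.02 over all clusters.

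**Figure D1:**
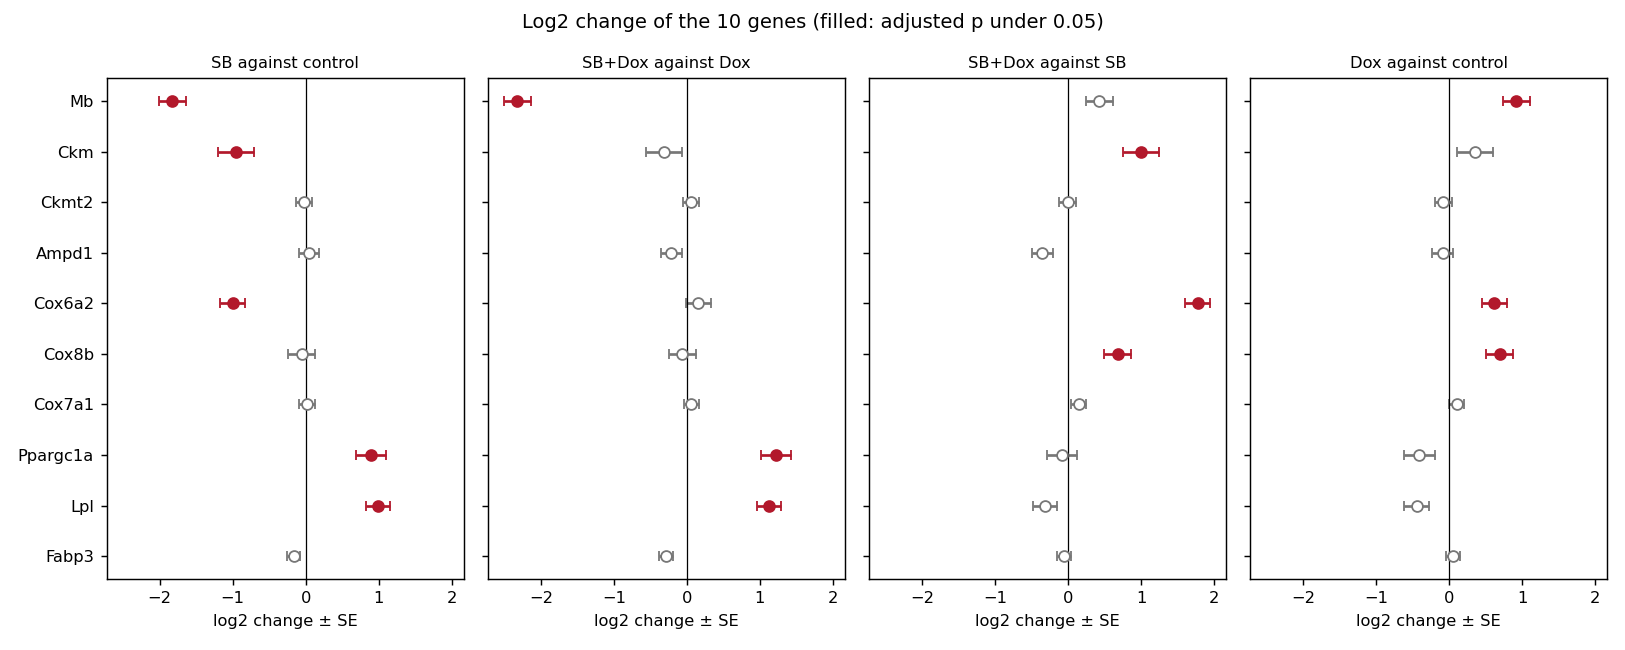
Log2 change with its SE (horizontal axis) of the 10 genes (rows) in 4 comparisons (panels), with filled points for an adjusted p under 0.05. Mb lies far left in both panels that test the inhibitor, Cox6a2 far right in SB+Dox against SB, and Ppargc1a and Lpl right of 0 in both inhibitor panels.

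Mb encodes myoglobin, the oxygen-binding haem protein of muscle (transcript cluster 10430140). It measured 6.57, 7.06 and 7.22 on the SB+Dox arrays, 6.49, 6.53 and 6.56 on the SB arrays, 8.99, 9.61 and 9.21 on the Dox arrays, and 8.26, 8.69 and 8.10 on the control arrays. All 6 arrays with the inhibitor lay below all 6 without it. Mb was lower by a factor of 3.54 in SB than in control (log2 difference -1.82 with SE 0.18, adjusted p = 3.79e-05). It was lower by a factor of 4.99 in SB+Dox than in Dox (log2 difference -2.32 with SE 0.18, adjusted p = 1.56e-06).

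Doxycycline raised Mb 1.89-fold without the inhibitor (log2 difference 0.92 with SE 0.18, adjusted p = 0.00709), with all 3 Dox arrays above all 3 control arrays. With the inhibitor its change was 0.42 (SE 0.18, adjusted p = 0.204), although all 3 SB+Dox arrays lay above the SB arrays. The difference between these doxycycline changes was -0.49 (SE 0.26, adjusted p = 0.505) and did not pass. Mb was also lower by a factor of 2.64 in SB+Dox than in control (log2 difference -1.40 with SE 0.18, adjusted p = 3.90e-04). In order of level the groups ran from Dox through control and SB+Dox to SB, and of neighbouring groups only SB+Dox and SB did not differ past the threshold. These 4 calls held without any single array.

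Ckm encodes the cytosolic creatine kinase of muscle, which regenerates ATP from phosphocreatine (cluster 10550698). Its values were 9.28, 9.24 and 9.81 on the SB+Dox arrays, 7.76, 8.57 and 8.99 on the SB arrays, 9.66, 9.88 and 9.72 on the Dox arrays, and 9.28, 9.73 and 9.19 on the control arrays. The SB arrays lay below all others and were the most spread. Ckm was lower by a factor of 1.95 in SB than in control (log2 difference -0.96 with SE 0.25, adjusted p = 0.0292) and higher by a factor of 2 in SB+Dox than in SB (log2 difference 1.00 with SE 0.25, adjusted p = 0.0214). In SB+Dox it averaged 9.44 ± 0.32 and in control 9.40 ± 0.29, a difference of 0.04 (SE 0.25, adjusted p = 0.968). It was not called in Dox against control (log2 difference 0.36 with SE 0.25, adjusted p = 0.624) or in SB+Dox against Dox (log2 difference -0.31 with SE 0.25, adjusted p = 0.543). By level the groups ran from Dox through SB+Dox and control to SB, and of neighbouring groups only control and SB differed past the threshold.

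Both calls for Ckm depended on single arrays. The fall in SB was not called without control replicate 1 (adjusted p = 0.0594), control replicate 2 (0.133), SB replicate 1 (0.101, change -0.62) or SB replicate 2 (0.0696), nor with every cluster of the table tested (0.11). The rise in SB+Dox over SB was not called without SB replicate 1 (adjusted p = 0.0774, change 0.66), SB replicate 2 (0.0529) or SB+Dox replicate 3 (0.118), nor with every cluster tested (0.0844).

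Cox6a2 encodes the heart and skeletal muscle form of cytochrome oxidase subunit 6A (cluster 10568369). It measured 8.50, 8.32 and 8.69 on the SB+Dox arrays, 6.52, 6.89 and 6.78 on the SB arrays, 8.22, 8.10 and 8.72 on the Dox arrays, and 7.56, 7.58 and 8.05 on the control arrays. The SB arrays lay below every other array, and all 3 SB+Dox arrays above every control array. Cox6a2 was higher by a factor of 3.42 in SB+Dox than in SB (log2 difference 1.77 with SE 0.17, adjusted p = 5.57e-05). In SB it was 2-fold lower than in control (it fell by 1.00 on the log2 scale with SE 0.17, adjusted p = 0.00239). Neither of these calls was lost without any single array.

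Doxycycline without the inhibitor raised Cox6a2 1.53-fold over control (log2 difference 0.62 with SE 0.17, adjusted p = 0.0493). The doxycycline change was larger with the inhibitor than without it by 1.16 (SE 0.24, adjusted p = 0.0413), in a test that called 0.895% of all clusters. Both values lay close to the threshold. The first was not called in 9 of 12 fits that each left out 1 array (adjusted p = 0.0502 to 0.248, called only without control replicate 3, Dox replicate 2 or SB replicate 1). The second was not called in 10 of 12 (0.0544 to 0.117, called only without Dox replicate 3 or SB replicate 3), while its size stayed between 1.00 and 1.34. With quantile normalisation (0.0642 and 0.0796) or with every cluster tested (0.154 and 0.172) neither passed, and the first was also lost after median centring (0.0652).

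In SB+Dox, Cox6a2 was 1.71-fold higher than in control (log2 difference 0.77 with SE 0.17, adjusted p = 0.0142). That call did not hold when SB+Dox replicate 3 (adjusted p = 0.0724), control replicate 1 (0.0695) or control replicate 2 (0.0669) was left out, or with every cluster tested (0.0645). Between SB+Dox and Dox it changed by 0.16 (SE 0.17, adjusted p = 0.684), and those arrays overlapped. The groups ran in order of level from SB+Dox and Dox, which did not differ past the threshold, through control to SB.

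Cox8b encodes a cytochrome oxidase subunit 8 form of heart, skeletal muscle and brown fat in rodents (cluster 10569008). On the SB+Dox arrays it measured 6.38, 6.35 and 6.79, on the SB arrays 5.29, 6.05 and 6.13, on the Dox arrays 6.49, 6.58 and 6.63, and on the control arrays 5.74, 6.01 and 5.88. All 6 arrays with doxycycline lay above all 6 without it. Cox8b was higher by a factor of 1.6 in SB+Dox than in SB (log2 difference 0.68 with SE 0.18, adjusted p = 0.0347) and higher by a factor of 1.61 in Dox than in control (log2 difference 0.69 with SE 0.18, adjusted p = 0.0398). The difference between these changes was -0.01 (SE 0.26, adjusted p = 0.994). The inhibitor changed it by -0.05 without doxycycline (SE 0.18, adjusted p = 0.925) and by -0.06 with it (SE 0.18, adjusted p = 0.895), signs that turn under some settings.

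Both calls for Cox8b lay close to the threshold. The first was lost without SB replicate 1 (adjusted p = 0.11, change 0.41) and without any of the SB+Dox arrays (0.0531, 0.0501 and 0.179 without SB+Dox replicates 1, 2 and 3). The second was lost without any 1 of the 3 Dox or 3 control arrays (0.0623 to 0.164), after median centring (0.0794) or quantile normalisation (0.05002), and both were lost with every cluster tested (0.111 and 0.136). In SB+Dox against control the change was 0.63 (SE 0.18, adjusted p = 0.0643), which passed in several other settings, among them without SB replicate 1 (0.00685) or SB replicate 3 (0.0387), with dim clusters left out (0.0499) and with array weights (0.0138).

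**Figure D2:**
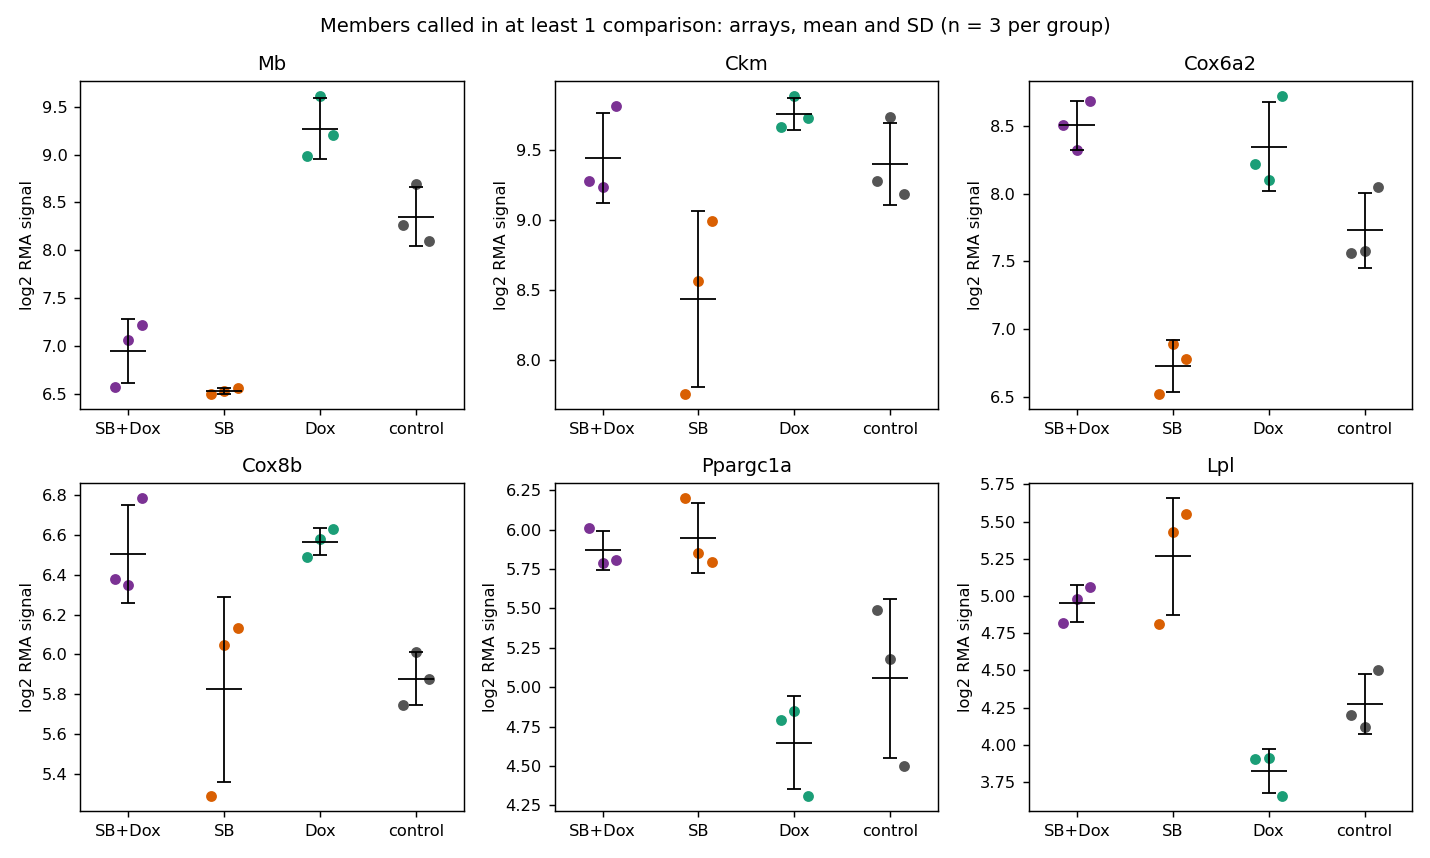
Log2 RMA signal (vertical axis, own range in each panel) of the 6 genes called in at least 1 comparison, with 1 point per array, the group mean as a bar and the SD as whiskers (n = 3 per group). Mb is low in SB+Dox and SB, Cox6a2 and Ckm are low in SB, Cox8b is high in SB+Dox and Dox, and Ppargc1a and Lpl are high in SB+Dox and SB.

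Ppargc1a encodes the coactivator PGC-1α. Its brighter cluster (10529979) measured 6.01, 5.79 and 5.81 on the SB+Dox arrays, 6.20, 5.85 and 5.79 on the SB arrays, 4.79, 4.85 and 4.31 on the Dox arrays, and 5.49, 5.18 and 4.50 on the control arrays. All 6 arrays with the inhibitor lay above all 6 without it, and the control arrays were the most spread. This cluster exceeded the array median on 8 of 12 arrays. Ppargc1a was higher by a factor of 2.33 in SB+Dox than in Dox (log2 difference 1.22 with SE 0.21, adjusted p = 0.00114). In SB it was 1.86-fold higher than in control (log2 difference 0.89 with SE 0.21, adjusted p = 0.0171), and in SB+Dox 1.76-fold higher than in control (log2 difference 0.81 with SE 0.21, adjusted p = 0.0336).

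The dimmer Ppargc1a cluster (10529977), whose levels of 2.87 to 4.38 lay below the array medians, was called in the same 3 comparisons. Its changes were 1.51 in SB+Dox against Dox, 0.99 in SB against control and 1.09 in SB+Dox against control (SE 0.26 each, adjusted p = 0.00125, 0.0333 and 0.0238). Doxycycline moved the brighter cluster by -0.08 with the inhibitor (SE 0.21, adjusted p = 0.859) and by -0.41 without it (SE 0.21, adjusted p = 0.408). Without control replicate 3 the change in Dox against control was -0.69 and passed (adjusted p = 0.0379), and with array weights it was -0.60 (0.043). The rise in SB over control was not called in fits that left out control replicate 3 (change 0.61, adjusted p = 0.0593) or SB replicate 1 (0.77, 0.0808) and with every cluster tested (0.0745). The rise in SB+Dox over control was lost without control replicates 2 (0.0634) or 3 (0.127, change 0.54), without SB+Dox replicates 1, 2 or 3 (0.116, 0.0795 and 0.0801), and with every cluster tested (0.117).

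Lpl encodes lipoprotein lipase, which releases fatty acids from circulating triglyceride (cluster 10572130). It measured 4.82, 4.98 and 5.06 on the SB+Dox arrays, 4.81, 5.43 and 5.55 on the SB arrays, 3.91, 3.91 and 3.66 on the Dox arrays, and 4.20, 4.12 and 4.50 on the control arrays. All arrays with the inhibitor lay above all arrays without it. Lpl was higher by a factor of 2.18 in SB+Dox than in Dox (log2 difference 1.13 with SE 0.16, adjusted p = 3.53e-04) and higher by a factor of 1.99 in SB than in control (log2 difference 0.99 with SE 0.16, adjusted p = 0.002). Its level in Dox and control lay below the array medians, and with the inhibitor it was close to them. Lpl exceeded the array median on 4 of 12 arrays. Of 9 adipocyte markers the limma fit called 0 (1 had an unadjusted p under 0.05 in SB against control and 0 in SB+Dox against Dox), and their mean level was 4.37 to 4.42 in SB+Dox, 4.31 to 4.57 in SB, 4.29 to 4.47 in Dox and 4.39 to 4.53 in control.

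In SB+Dox, Lpl was 1.6-fold higher than in control (log2 difference 0.68 with SE 0.16, adjusted p = 0.0258), and that result was not called without control replicate 1 (0.0968), control replicate 2 (0.105), SB+Dox replicate 2 (0.0882) or SB+Dox replicate 3 (0.105), and with every cluster tested (0.0922). Its doxycycline changes were -0.31 with the inhibitor (SE 0.16, adjusted p = 0.299) and -0.45 without it (SE 0.16, adjusted p = 0.174). Without SB replicate 1 both passed (-0.54, adjusted p = 0.033, and -0.45, adjusted p = 0.0403).

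The other 4 genes were called in no comparison, with changes between -0.35 and 0.16 over the 5 comparisons of groups. Ckmt2, the mitochondrial creatine kinase of muscle, measured 3.76 ± 0.14 in SB+Dox, 3.77 ± 0.16 in SB, 3.71 ± 0.14 in Dox and 3.79 ± 0.12 in control, below the median of each of the 12 arrays. Cox7a1, the muscle form of cytochrome oxidase subunit 7A, measured 5.71 ± 0.11 in SB+Dox, 5.56 ± 0.15 in SB, 5.65 ± 0.09 in Dox and 5.55 ± 0.13 in control, above the median of each array. Its change was 0.14 in SB+Dox against SB and 0.10 in Dox against control (SE 0.11 each, adjusted p = 0.475 and 0.818).

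Ampd1, the muscle AMP deaminase of the purine nucleotide cycle, measured 4.40 ± 0.05 in SB+Dox, 4.75 ± 0.30 in SB, 4.62 ± 0.10 in Dox and 4.71 ± 0.23 in control. The SB+Dox arrays lay below all others, but its change against SB was -0.35 (SE 0.14, adjusted p = 0.169). That change passed without SB replicate 3 (-0.48, adjusted p = 0.0455) and with array weights (-0.52, adjusted p = 0.013), and with array weights SB+Dox against control passed as well (-0.40, adjusted p = 0.0478). Its level exceeded the array median on 1 of 12 arrays.

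Fabp3, the heart-type fatty acid-binding protein, measured 4.73 ± 0.08 in SB+Dox, 4.79 ± 0.09 in SB, 5.01 ± 0.06 in Dox and 4.96 ± 0.13 in control on its brighter cluster (10371502). SB+Dox against Dox was -0.28 there (SE 0.09, adjusted p = 0.0779), whereas the second cluster (10508614) changed by -0.41 (SE 0.10, adjusted p = 0.0194). The mean of both clusters changed by -0.34 and passed (adjusted p = 0.0295). Both clusters lay lower in all 3 SB+Dox arrays than in all 3 Dox arrays.

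**Figure D3:**
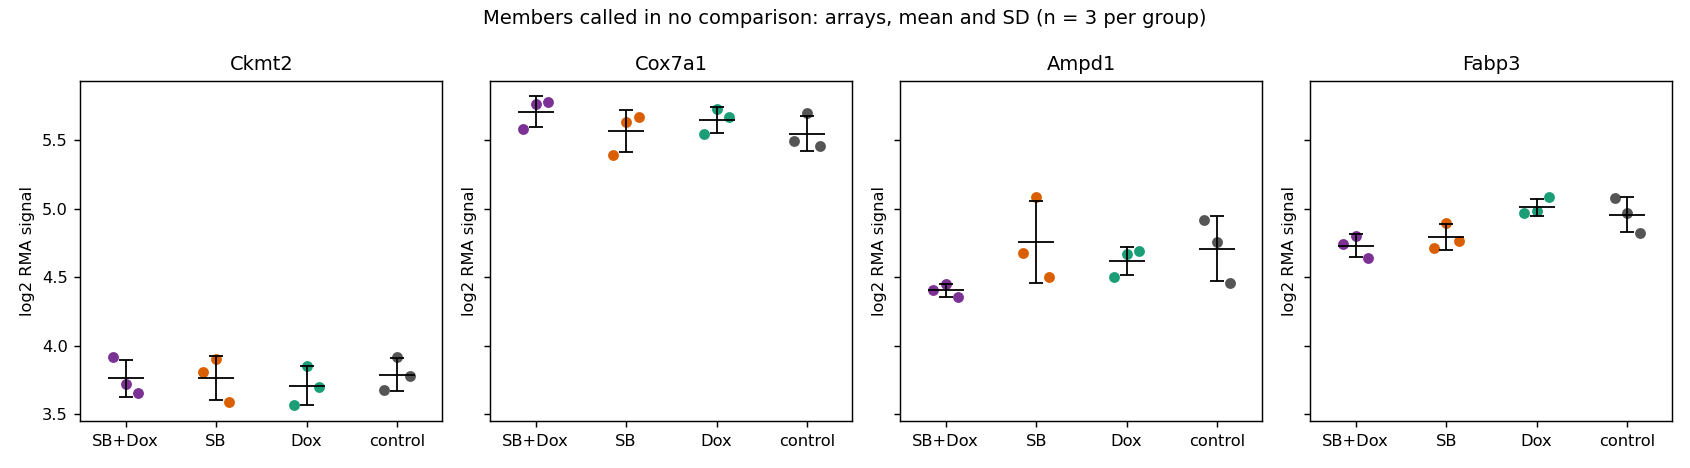
Log2 RMA signal (vertical axis, shared) of the 4 genes called in no comparison, with 1 point per array, the group mean as a bar and the SD as whiskers (n = 3 per group). Ckmt2 lies between 3.57 and 3.92 on all arrays, and the 3 SB+Dox arrays of Ampd1 lie below the rest.

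Promoter sequence was available from RefSeq (GRCm38.p6) for 7 of the 10 genes: Mb, Ckm, Ckmt2, Cox7a1, Cox8b, Ppargc1a and Fabp3. The 250 bases before the start site are printed for Mb and Ckm, which fell with the inhibitor alone relative to control, for Cox8b, which rose with doxycycline, and for Ppargc1a, which rose with the inhibitor. Capitals mark the E-box CANNTG, the sequence that myogenic factors bind, which reads the same on both strands. For Mb, with 3 listed start sites, the one farthest along the direction of transcription was taken (chr15:77022728-77022977, minus strand). The others are Ckm (chr7:19410844-19411093, plus strand), Cox8b (chr7:140900447-140900696, minus strand) and Ppargc1a (chr5:51567726-51567975, minus strand).
Mb: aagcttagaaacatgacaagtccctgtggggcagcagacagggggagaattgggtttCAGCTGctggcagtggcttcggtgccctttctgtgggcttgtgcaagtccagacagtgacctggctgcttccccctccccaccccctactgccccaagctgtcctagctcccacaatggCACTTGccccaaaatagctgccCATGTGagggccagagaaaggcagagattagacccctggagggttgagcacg
Ckm: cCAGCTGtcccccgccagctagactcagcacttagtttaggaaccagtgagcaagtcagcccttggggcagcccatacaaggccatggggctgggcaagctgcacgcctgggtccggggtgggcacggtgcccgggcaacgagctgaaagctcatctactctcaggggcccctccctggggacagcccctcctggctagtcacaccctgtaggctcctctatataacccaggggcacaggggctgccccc
Cox8b: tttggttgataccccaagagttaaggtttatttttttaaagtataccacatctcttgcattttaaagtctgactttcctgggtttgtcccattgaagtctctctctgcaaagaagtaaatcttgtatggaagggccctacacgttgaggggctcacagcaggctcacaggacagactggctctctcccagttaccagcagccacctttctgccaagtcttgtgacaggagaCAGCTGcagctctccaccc
Ppargc1a: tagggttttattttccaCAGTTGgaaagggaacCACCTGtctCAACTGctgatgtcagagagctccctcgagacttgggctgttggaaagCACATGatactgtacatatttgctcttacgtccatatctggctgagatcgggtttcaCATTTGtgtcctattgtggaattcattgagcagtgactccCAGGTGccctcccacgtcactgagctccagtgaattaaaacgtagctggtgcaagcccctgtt

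An E-box of the form CAGCTG, 1 of the CANNTG forms, lay at -193 to -188 from the start site of Mb, at -249 to -244 of Ckm and at -19 to -14 of Cox8b. The Ppargc1a window held 6 matches to CANNTG and 0 to CAGCTG. Mb had 2 further E-boxes, at -74 to -69 and at -52 to -47. Of the 3 genes not printed, Ckmt2 held 4 matches to CANNTG, 1 of them CAGCTG, while Cox7a1 and Fabp3 held 1 CANNTG and 0 CAGCTG each. Among all 32851 windows of this length, 66.2% held CANNTG and 13% held CAGCTG. The MEF2 consensus, searched on both strands, had 0 matches in the 7 windows and was found in 2.92% of all windows. These matches describe the letters of the windows and do not show binding.

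Relatives of the muscle genes, only some of them found in many tissues, were set beside them, 16 of 17 listed being measured. Fabp4 among these relatives also served as an adipocyte marker. Cox6a1, the usual form of subunit 6A, measured 9.16 ± 0.05 in SB+Dox, 9.04 ± 0.18 in SB, 8.69 ± 0.15 in Dox and 8.76 ± 0.06 in control. It was not called in SB against control (log2 difference 0.29 with SE 0.11, adjusted p = 0.151) or in SB+Dox against SB (log2 difference 0.12 with SE 0.11, adjusted p = 0.564), where Cox6a2 fell by 1.00 and rose by 1.77. Cox6a1 rose in SB+Dox against Dox by 0.47 (SE 0.11, adjusted p = 0.00824). In SB+Dox against control 1 of the 16 relatives rose and 0 fell, where 2.84% of clusters were higher and 2.42% lower. Cox6a1 averaged 9.16 and 8.76 in these groups, and Cox6a2 rose there by 0.77. The usual forms Cox8a and Cox7a2 were called in no comparison, with levels of 8.94 to 9.17 and 7.72 to 7.89. The difference in change between a muscle gene and its relative was not tested.

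Ckb, the brain-type creatine kinase, fell in SB against control and rose with doxycycline, both with the inhibitor and without it. It measured 8.62, 8.91 and 8.98 on the SB+Dox arrays, 7.03, 7.71 and 7.21 on the SB arrays, 9.45, 9.81 and 9.27 on the Dox arrays, and 8.24, 8.82 and 7.89 on the control arrays. Ckb was higher by a factor of 2.88 in SB+Dox than in SB (log2 difference 1.52 with SE 0.22, adjusted p = 8.39e-04). It was lower by a factor of 2 in SB than in control (it fell by 1.00 on the log2 scale with SE 0.22, adjusted p = 0.0116) and higher by a factor of 2.28 in Dox than in control (log2 difference 1.19 with SE 0.22, adjusted p = 0.00372).

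Ampd3, the AMP deaminase of red cells and other tissues, rose with the inhibitor, by 0.77 in SB against control (SE 0.17, adjusted p = 0.0106) and by 0.96 in SB+Dox against Dox (SE 0.17, adjusted p = 0.00132), while Ampd2 was called in no comparison. Ppargc1b, which encodes the related coactivator PGC-1β, rose in SB+Dox against Dox by 0.59 (SE 0.15, adjusted p = 0.0193) and was not called in SB against control (0.28, adjusted p = 0.383). Fabp5, the epidermal fatty acid-binding protein, rose with the inhibitor by 0.41 without doxycycline and 0.44 with it (adjusted p = 0.0229 and 0.00923). It fell with doxycycline by 0.38 with the inhibitor and by 0.40 without it (adjusted p = 0.0363 and 0.0294). Cygb, Ngb, Ckmt1, Pprc1, Lipg, Fabp4 and Fabp7 were called in no comparison, and Cox7a2l rose in SB+Dox against Dox by 0.37 (adjusted p = 0.0292).

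**Figure D4:**
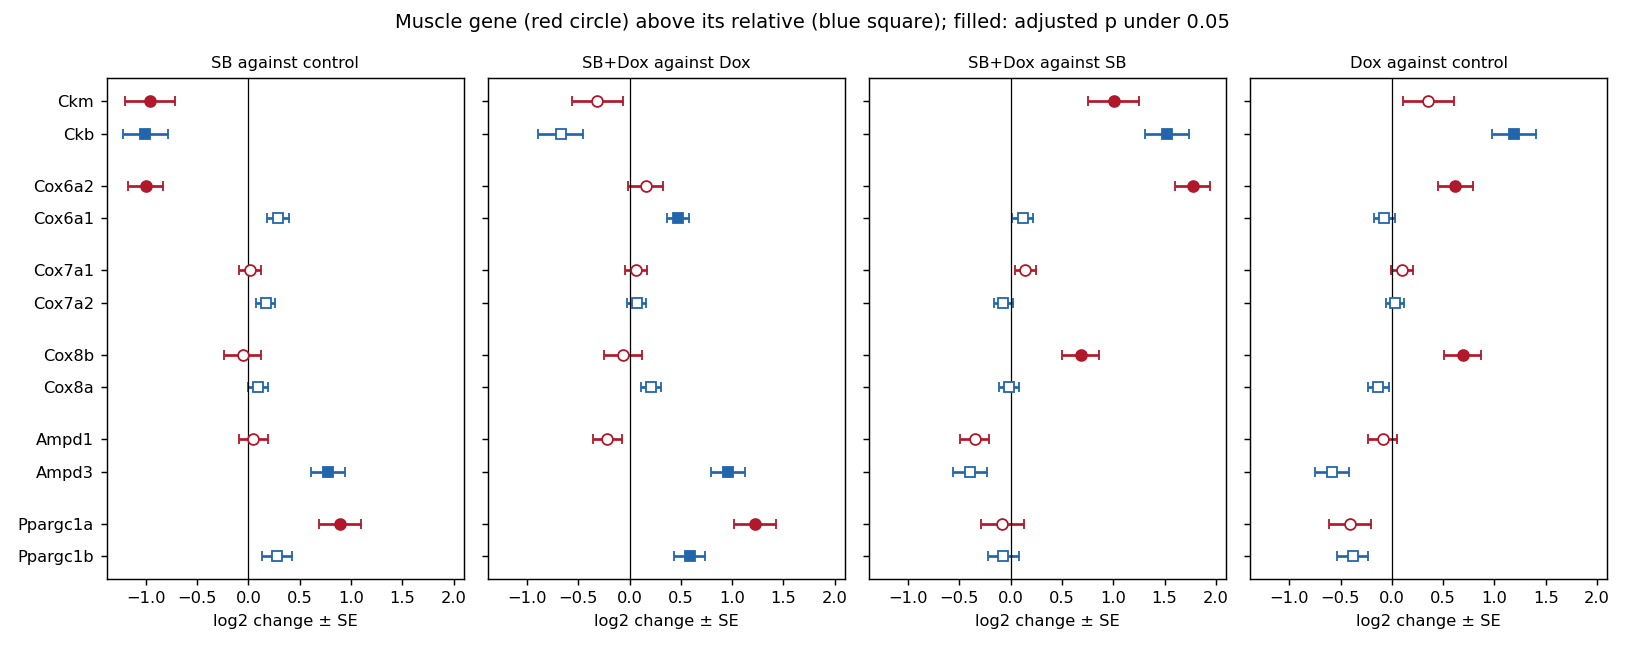
Log2 change with its SE (horizontal axis) of 6 muscle genes (red circles), each above a relative (blue squares), in 4 comparisons (panels), with filled symbols for an adjusted p under 0.05. Ckm and Ckb lie on the same side of 0 in each panel, while Cox6a2 and Cox6a1 lie on opposite sides in SB against control.

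A list of creatine, adenylate and purine nucleotide genes, with a few muscle genes of glycogen and glycolysis, moved in several ways. It included Ckb and Ampd3, already described above. Of its 18 measured genes beside the 10, 2 rose and 1 fell in SB against control, 3 rose and 0 fell in SB+Dox against SB, 2 rose and 2 fell in Dox against control, and 7 rose and 0 fell in SB+Dox against Dox, where 6.38%, 7.11%, 5.31% and 10.4% of all clusters were called. Their median change in these 4 comparisons was 0.01, 0.12, -0.05 and 0.11. Gatm, the first enzyme of creatine synthesis, rose in SB+Dox against SB (log2 difference 1.05 with SE 0.15, adjusted p = 9.55e-04), as did Adssl1, the muscle adenylosuccinate synthase (log2 difference 1.07 with SE 0.11, adjusted p = 8.07e-05). Adssl1 also rose in Dox against control (0.98, adjusted p = 1.05e-04). Gamt, the second enzyme of creatine synthesis, rose with the inhibitor, by 0.94 in SB against control (adjusted p = 0.0242) and by 1.68 in SB+Dox against Dox (adjusted p = 2.33e-04).

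Pygm, muscle glycogen phosphorylase, fell in Dox against control by 1.21 on the log2 scale (SE 0.17, adjusted p = 4.91e-04) and rose in SB+Dox against Dox by 1.89 (SE 0.17, adjusted p = 4.73e-06). Pgam2, the muscle phosphoglycerate mutase, fell in Dox against control by 0.97 and rose in SB+Dox against Dox by 1.19 (adjusted p = 0.0327 and 0.0052). Relative to control, 4 of the 18 rose in SB+Dox and 0 fell, where 2.84% of all clusters were higher and 2.42% lower. The 4 were Gamt (1.29), Gatm (0.87), Adssl1 (0.75) and Pygm (0.68), with adjusted p = 0.0038, 0.00334, 6.96e-04 and 0.0289.

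Around PGC-1α, 21 further regulators were measured, and the share called lay near that of all clusters in SB against control (1 of 21, beside 6.38%), SB+Dox against SB (1 of 21, beside 7.11%) and SB+Dox against Dox (2 of 21, beside 10.4%). In SB against control 0 rose and 1 fell, Tfb2m, a mitochondrial transcription factor, by 0.69 (adjusted p = 0.0245). In SB+Dox against SB, Tfb1m, a mitochondrial rRNA methyltransferase, was the 1 gene that rose (0.52, adjusted p = 0.0256), and 0 fell. In SB+Dox against Dox 2 rose, Ppargc1b and the orphan receptor gene Esrrg (0.30, adjusted p = 0.049), and 0 fell. In Dox against control and in SB+Dox against control the limma fit called 0 (4 and 3 had an unadjusted p under 0.05), beside 5.31% and 5.26% of all clusters. The largest changes were -0.38 for Ppargc1b (adjusted p = 0.216) and 0.38 for Tfam (adjusted p = 0.374).

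Of 27 measured genes of fatty acid uptake and oxidation beside Lpl and Fabp3, 4 rose and 0 fell in SB against control, where 2.51% of all clusters were higher and 3.87% lower. Between SB+Dox and Dox 6 rose and 0 fell in SB+Dox, where all clusters leaned the same way (6.97% higher and 3.43% lower). In Dox against control 0 rose and 5 fell (1.43% of clusters higher and 3.88% lower), and in SB+Dox against SB 0 rose and 1 fell (4.4% higher and 2.71% lower). Relative to control 2 rose in SB+Dox, Hadh by 1.20 and Acaa2 by 0.57 (adjusted p = 1.44e-05 and 0.00804), and 0 fell. There 2.84% of clusters were higher and 2.42% lower. The median change of the 27 was 0.10 in SB against control and 0.12 in SB+Dox against Dox. It was -0.03 in Dox against control, 0.02 in SB+Dox against SB and 0.14 in SB+Dox against control.

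Hadh, a mitochondrial enzyme of β-oxidation, measured 9.28, 9.18 and 9.37 on the SB+Dox arrays, 8.86, 8.98 and 9.05 on the SB arrays, 7.77, 7.40 and 7.44 on the Dox arrays, and 8.05, 8.06 and 8.11 on the control arrays. The 4 groups of Hadh did not overlap. Hadh was higher by a factor of 3.34 in SB+Dox than in Dox (log2 difference 1.74 with SE 0.11, adjusted p = 1.70e-07) and higher by a factor of 1.86 in SB than in control (log2 difference 0.89 with SE 0.11, adjusted p = 1.50e-04). Cpt1a, the carnitine transferase that admits long fatty acids to mitochondria, was higher in SB than in control (log2 difference 0.74 with SE 0.11, adjusted p = 7.98e-04). With doxycycline it fell by 0.43 in the presence of the inhibitor (adjusted p = 0.0261) and by 0.66 without it (adjusted p = 0.00165). Acaa2, a mitochondrial thiolase, rose by 0.51 in SB against control and by 0.99 in SB+Dox against Dox (adjusted p = 0.0132 and 4.71e-05). Cd36, a fatty acid transporter, fell in Dox against control by 1.04 (SE 0.21, adjusted p = 0.00835), with levels below the array medians in all 4 groups.

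**Figure D5:**
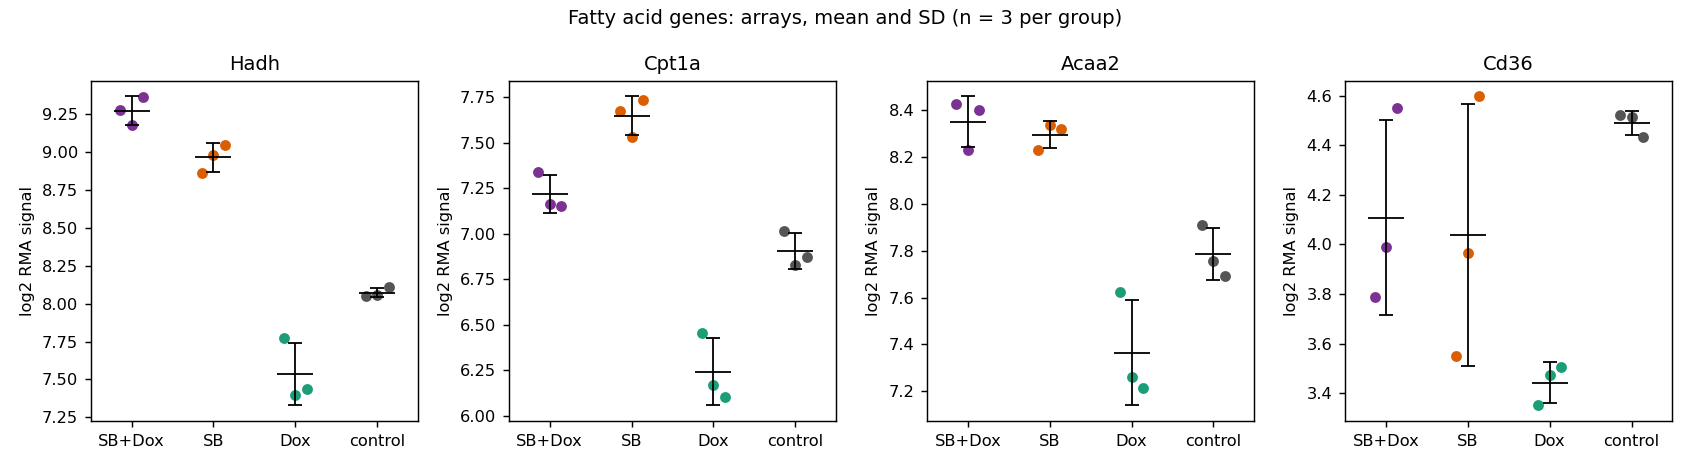
Log2 RMA signal (vertical axis, own range in each panel) of 4 genes of fatty acid use, with 1 point per array, the group mean as a bar and the SD as whiskers (n = 3 per group). Hadh, Cpt1a and Acaa2 are higher in SB+Dox and SB than in Dox and control, and Cd36 is lowest in Dox.

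A further list held mainly other mitochondrial carriers and enzymes, but also Tfrc, the transferrin receptor gene, and 22 of its 23 genes were measured. In SB+Dox against Dox 9 of the 22 rose and 0 fell, where 6.97% of all clusters were higher and 3.43% lower. In SB against control 3 rose and 0 fell (2.51% of clusters higher and 3.87% lower), among them Idh2, the mitochondrial NADP-dependent isocitrate dehydrogenase (log2 difference 0.56 with SE 0.10, adjusted p = 0.00262). In SB+Dox against Dox, Idh2 rose by 1.01 and Slc25a4, the muscle ATP/ADP carrier, by 0.62 (adjusted p = 8.43e-06 and 0.00289). In SB+Dox against SB 2 rose, Vdac3 of the outer membrane by 0.61 and the fusion protein gene Opa1 by 0.50 (adjusted p = 0.0136 and 0.0153), and 0 fell (4.4% of clusters higher and 2.71% lower). In Dox against control 1 rose, Coq8a of coenzyme Q synthesis (0.75, adjusted p = 0.00188), and 1 fell, Idh2, by 0.72 (adjusted p = 3.81e-04), where 1.43% of clusters were higher and 3.88% lower. Relative to control 3 of the 22 rose in SB+Dox and 0 fell (2.84% of clusters higher and 2.42% lower). The 3 were Coq10a (0.51), Ogdh (0.44) and Cs (0.36), with adjusted p = 0.008, 0.0461 and 0.0382.

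The genes whose profile lay nearest each of the 6 called genes were found among 17317 genes by the root mean square (RMS) difference of log2 values over the 12 arrays, after removal of each gene's mean. For Mb they were Rdh5 (0.20), Marchf11 (0.21) and Inpp4b (0.22), beside an own variation of Mb of 1.12. Those nearest Ckm were Myom1, Chrng and Tnnt2 (0.17, 0.18 and 0.19, against 0.59). Nearest Cox6a2 were Shmt2, Slc6a9 and Bcat1 (0.19, 0.19 and 0.23, against 0.73). Cox8b lay nearest Cbwd1, Slc38a9 and Asah1 (0.15, 0.17 and 0.18, against 0.41). For Ppargc1a they were Scrn1, Qdpr and Vav3 (0.18, 0.19 and 0.20, against 0.61), and for Lpl Dzip1, B4galt5 and Dtx4 (0.16, 0.18 and 0.18, against 0.60). The measure says how close the profiles lie on these arrays and was not tested.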

How the data were processed

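Total RNA of 12 samples was measured on Affymetrix arrays after whole-transcript labelling. The authors made log2 values with RMA in Affymetrix Expression Console, per the submitters' processing notes. Its version and the genome build are not given in the sources used here. That deposited table held 35557 clusters with 0 missing values, from 0.5 to 13.17 on the log2 scale, and all 12 columns belonged to a sample. The 21789 clusters with exactly 1 symbol were tested, 1621 with several and 12147 with none being left out. Arrays have no depth, and 3 arrays per group limit the precision.

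A model with 1 mean per group was fitted with limma 3.58.1 in R 4.3.3 and eBayes. P-values were adjusted by the Benjamini-Hochberg method within each of 6 comparisons, the sixth being the interaction (SB+Dox minus SB, less Dox minus control). On simulated arrays of 21789 clusters, 70% of changes of 1.5-fold, 94% of 2-fold and 100% of 4-fold in SB against control were recovered, with 8 of 21589 unchanged clusters called. The simulated noise was independent between arrays, and the changed clusters were few and all raised in SB. Rates on the real arrays can therefore differ. The 10 genes, the gene lists and the tests were chosen with earlier results of these data known. Eligible for naming were the 10, Myog, Myod1, the listed relatives and the 3 nearest profiles of each called gene. So were the 4 largest called changes of a list in a comparison, or the largest where none was called. Not every eligible gene was named.

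Same-numbered arrays were checked by correlating deviations from group means over all tested clusters. SB+Dox and SB arrays correlated at 0.44, 0.19 and 0.49, so same-numbered arrays of these groups deviated together. The labels state no pairing, the reason was not tested, and the main fit did not use the numbers. In the other 4 comparisons of groups at least 1 pair lay under 0.1. A block for the replicate number changed no call among the 10 genes in SB+Dox against SB. Alternatives were this block, median centring, quantile normalisation, dim clusters left out, every cluster tested, an eBayes trend, array weights, the mean of a gene's clusters, and each array left out in turn.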

Additional observations from a re-analysis of the deposited data

Results flagged for a closer look

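By the interaction test, which called 0.895% of all clusters, the doxycycline change differed with and without the inhibitor for 3 of the 146 genes examined (the 10 genes and the listed ones). The difference was 1.16 for Cox6a2 (SE 0.24, adjusted p = 0.0413), whose doxycycline change was 1.77 with SB203580 and 0.62 without it. This call was lost in 10 of 12 fits that left out 1 array (adjusted p up to 0.117), after quantile normalisation (0.0796) and with every cluster tested (0.172). For Pygm the difference was 1.56 (SE 0.24, adjusted p = 0.0122), with changes of 0.35 and -1.21. For Hadh it was 0.85 (SE 0.15, adjusted p = 0.0228), with changes of 0.31 and -0.54. The alternatives were not run for Pygm and Hadh. Groups of 3 arrays were too small for a test of outlying samples.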

How the results depend on the processing

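Under the alternatives, the 4 calls of Mb, the fall of Cox6a2 in SB against control and its rise in SB+Dox against SB, the rise of Lpl in SB against control, and the rises of Ppargc1a and Lpl in SB+Dox against Dox were kept in every setting run. The remaining calls had adjusted p = 0.0142 to 0.0493 in the main limma fit, and each was lost in at least 1 setting. With 3 arrays per group and no background measured, changes near 1.5-fold and levels below the array medians are the least certain.

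With array weights the number of clusters called was 2794 in SB against control, 3076 in SB+Dox against SB, 1831 in Dox against control, 1935 in SB+Dox against control and 678 in the interaction. Testing every cluster, which adjusts over more clusters, gave 876 in SB against control, 696 in SB+Dox against control and 6 in the interaction, and left 3 of the 10 genes in SB against control, 1 in each of SB+Dox against SB, Dox against control and SB+Dox against control, and 0 in the interaction. The interaction held 421 clusters with the replicate block and 84 after quantile normalisation, when 0 of the 10 genes passed. Dox against control held 1 of the 10 after median centring and 1 after quantile normalisation. The causes were not tested.

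Each array left out in turn gave 779 to 1644 clusters in SB against control, 724 to 2521 in SB+Dox against SB, 744 to 1305 in Dox against control, 644 to 1351 in SB+Dox against control, 1614 to 2511 in SB+Dox against Dox and 27 to 352 in the interaction. In these fits 3 to 5, 1 to 4, 1 to 4, 1 to 5, 3 and 0 to 1 of the 10 genes were called.

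For the 4 genes called in no comparison, signs turned 33 times over the settings. Ampd1 in SB against control, for example, was 0.05 in the main fit and -0.12 without SB replicate 2. Among the other 6 genes, signs turned for changes near 0 that were not called. The Cox8b interaction was 0.0753 after median centring. With array weights Cox8b in SB against control was 0.0693, Ckm in SB+Dox against control -0.0167 and the Lpl interaction -0.00988. Ppargc1a in SB+Dox against SB was 0.00991 as the mean of its clusters. With single arrays left out these ran from -0.277 to 0.147, -0.21 to 0.214, -0.143 to 0.21, -0.091 to 0.277 and -0.158 to 0.0476, and Cox8b in SB+Dox against Dox from -0.205 to 0.0157.

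The replicate block, as a pairing of all groups, added Cox8b in SB+Dox against control (0.63, adjusted p = 0.02) and changed no other call among the 10 genes. Every SB+Dox array correlated best with the same-numbered SB array and with the same-numbered Dox array.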
